A study of Mus musculus with 24 samples.

Results

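The Cyp2b genes and the receptors CAR and PXR were followed in mouse liver, through 5 genes of the 41388 counted. Cyp2b10, Cyp2b9 and Cyp2b13 were picked for the rise that their counts showed on a high-fat diet in these libraries, and the nuclear receptors Nr1i3 (CAR, the constitutive androstane receptor) and Nr1i2 (PXR, the pregnane X receptor) were added by name. All 5 were among the 13052 genes tested, but Cyp2b13 entered with more than 1 CPM (read counts scaled to a common library size) in 4 mice, the lowest number that the limit allowed, namely Adn-Lpin1-/- HFD mice 1, 2 and 3 and WT HFD mouse 1. The diet differences of the Cyp2b genes chose them and are therefore given below as a description, with no test. Genotype was not used in the choice, and neither were the diet values of the receptors, so these were tested. The genotype contrasts of the Cyp2b genes still share mice with the diet differences that chose them. Their p-values, above all on the HFD, are therefore not independent of the choice.

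Livers came from male mice on a C57BL/6J background that carried floxed Lpin1 alleles. Lpin1 encodes lipin 1, a phosphatidic acid phosphohydrolase of triglyceride synthesis. In Adn-Lpin1-/- mice the gene was deleted by a Cre under the adiponectin promoter, which is active in adipocytes, and WT mice were floxed littermates without Cre, so that carrying Cre and lacking adipocyte lipin 1 cannot be told apart. From 8 weeks of age the mice received a low-fat diet (LFD, 10% of kcal from fat) or a high-fat diet (HFD, 60%), for 16 weeks by the labels and 5 weeks by the study's methods, and livers were frozen after a 4 h fast. Each of the 4 groups (WT LFD, Adn-Lpin1-/- LFD, WT HFD and Adn-Lpin1-/- HFD) had 5 libraries of single mice, and a further library of RNA pooled from the same 5 mice was kept out of all tests. Total counts were between 36260187 and 81072794 per mouse, with group medians from 40777580 in WT LFD to 62306028 in Adn-Lpin1-/- HFD.

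CYP2B enzymes are cytochrome P450 monooxygenases of the hepatocyte endoplasmic reticulum that oxidize drugs, steroids and fatty acids. CAR and PXR are nuclear receptors that bind DNA together with RXR and switch on such enzymes when foreign compounds, bile acids or other ligands are present, and Cyp2b10 is the textbook target of CAR. CAR is held in the cytoplasm and moves to the nucleus on activation, so its transcript level does not report its activity. In mice Cyp2b9 and Cyp2b13 are known as female-biased liver genes that the male pattern of growth hormone pulses keeps low.

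The 3 genes lie side by side on the plus strand of chromosome 7 (GRCm38), Cyp2b10 (ENSMUSG00000030483) at 25897620-25926624, Cyp2b13 (ENSMUSG00000040583) at 26061495-26096196 and Cyp2b9 (ENSMUSG00000040660) at 26173411-26210661. Cyp2b9 and Cyp2b13 are close copies, and their coding sequences of 1473 bases were identical at 92.7% of positions, against 86.2% for Cyp2b10 with Cyp2b9 and 87.1% for Cyp2b10 with Cyp2b13. The coding stretch where the copies differ most, bases 1056 to 1115 with 13 differences, is shown because only reads over such bases tell the copies apart, with the differing bases in capitals.
Cyp2b9: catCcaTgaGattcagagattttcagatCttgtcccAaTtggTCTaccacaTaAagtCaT
Cyp2b13: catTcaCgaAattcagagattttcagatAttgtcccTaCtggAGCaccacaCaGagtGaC
The longest identical run in the coding sequence was 113 bases. Of all 75-base windows of the transcript, 5.16% in Cyp2b9, 16.4% in Cyp2b13 and 3.32% in Cyp2b10 also occurred in a transcript of another gene, and 1.18%, 9.29% and 0% did so at 100 bases. The authors counted uniquely aligned reads only, so how many reads of each gene were lost depends on the read length, which is not given in the sources used here. Between the copies, 23.3% of 75-base coding windows differed by at most 2 bases.

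The promoter windows (RefSeq, GRCm38.p6, from 250 bases before to 50 after the start, with a window found for all 5 genes) are shown because Cyp2b9 and Cyp2b13 moved together and are nearly identical there, at 99.3% of 300 positions, whereas Cyp2b10 matched each of them at 70.1% of aligned positions. Capitals mark the bases that differ between Cyp2b9 (chr7:26173159-26173458) and Cyp2b13 (chr7:26061245-26061544), which are T48C and C104T, written from Cyp2b9 to Cyp2b13 and counted from the first base of the window. In Cyp2b10 (chr7:25897408-25897707) they mark matches to ATAAAA.
Cyp2b9: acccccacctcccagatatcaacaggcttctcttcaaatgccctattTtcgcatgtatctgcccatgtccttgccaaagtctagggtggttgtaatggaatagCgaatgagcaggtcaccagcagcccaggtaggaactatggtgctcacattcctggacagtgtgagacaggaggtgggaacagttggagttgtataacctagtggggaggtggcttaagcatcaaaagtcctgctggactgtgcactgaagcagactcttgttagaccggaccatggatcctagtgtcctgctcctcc
Cyp2b13: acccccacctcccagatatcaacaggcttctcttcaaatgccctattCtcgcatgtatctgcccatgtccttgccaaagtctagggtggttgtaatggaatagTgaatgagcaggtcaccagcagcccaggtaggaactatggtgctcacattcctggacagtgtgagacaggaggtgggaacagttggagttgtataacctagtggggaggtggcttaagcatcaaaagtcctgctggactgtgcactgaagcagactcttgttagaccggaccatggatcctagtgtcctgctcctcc
Cyp2b10: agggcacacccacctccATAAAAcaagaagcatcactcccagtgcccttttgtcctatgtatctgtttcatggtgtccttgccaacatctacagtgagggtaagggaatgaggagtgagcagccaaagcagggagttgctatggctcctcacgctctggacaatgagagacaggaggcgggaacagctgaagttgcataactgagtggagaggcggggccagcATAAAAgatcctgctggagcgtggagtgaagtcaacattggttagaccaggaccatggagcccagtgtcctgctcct
Both strands were searched for AGGTCA, the common half-site of nuclear receptors, for a variant half-site with the letters AGTTCA, for the STAT motif with the letters TTCNNNGAA, and for the TATA-like motif with the letters ATAAAA. The common half-site AGGTCA had 1 match in Cyp2b9 and 1 in Cyp2b13, at position 113 of both, and in 16.3% of 32851 promoter windows. ATAAAA occurred at positions 18 and 224 of Cyp2b10 alone among the 3 windows, and in 18.5% of all windows. The variant half-site and the STAT motif, found in 14% and 8.3% of all windows, had no match in the 5 genes. A match describes letters in this window and no more, and the distal enhancer through which CAR acts on Cyp2b10 lies outside it.

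Cyp2b10 was low in WT LFD livers, with 27, 2, 26, 4 and 57 counts in mice 1 to 5 (0.695, 0.045, 0.774, 0.104 and 1.41 CPM). Adn-Lpin1-/- LFD livers held 208, 34, 35, 124 and 141 counts (3.94, 0.656, 0.558, 2.38 and 2.31 CPM). On the HFD the WT mice held 443, 295, 101, 285 and 5 counts (8.08, 5.37, 1.75, 5.49 and 0.0856 CPM). WT HFD mouse 5 was as low as the lowest LFD mice, and the other 4 lay above every WT LFD mouse. Adn-Lpin1-/- HFD livers held 398, 469, 477, 800 and 509 counts (6.37, 6.99, 5.59, 13.8 and 6.32 CPM), and all 5 lay above all 5 Adn-Lpin1-/- LFD mice. Group means rose in order from 0.605 ± 0.557 (SD, n = 5) in WT LFD through 1.97 ± 1.4 in Adn-Lpin1-/- LFD and 4.15 ± 3.2 in WT HFD to 7.82 ± 3.39 CPM in Adn-Lpin1-/- HFD, and each neighbouring pair in that order overlapped.

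Cyp2b9 had the highest counts of the 3 genes and the widest spread. WT LFD mice held 2, 6, 6, 28 and 545 counts (0.0515, 0.135, 0.179, 0.73 and 13.4 CPM), so that mouse 5 alone carried most of the group mean of 2.91 ± 5.89 CPM (SD, n = 5). Adn-Lpin1-/- LFD mice held 41, 9, 1, 191 and 343 counts (0.777, 0.174, 0.0159, 3.67 and 5.62 CPM, mean 2.05 ± 2.48). WT HFD mice held 2804, 823, 539, 615 and 16 counts (51.1, 15, 9.32, 11.8 and 0.274 CPM, mean 17.5 ± 19.6). Mouse 5 was again the exception, low here where mouse 5 of WT LFD was high. Adn-Lpin1-/- HFD mice held 8342, 6232, 4626, 1335 and 989 counts (133, 92.9, 54.2, 23 and 12.3 CPM, mean 63.2 ± 50.3). Every Adn-Lpin1-/- HFD mouse lay above every Adn-Lpin1-/- LFD mouse, whereas the WT groups overlapped through the mice numbered 5.

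Cyp2b13 followed Cyp2b9 at a small fraction of its counts. WT LFD mice held 0 counts in mice 1 to 4 and 5 in mouse 5, and Adn-Lpin1-/- LFD mice held 2, 0, 0, 8 and 12. On the HFD the counts were 71, 27, 6, 10 and 0 in WT and 217, 162, 123, 38 and 39 in Adn-Lpin1-/- mice, or 0.416 ± 0.524 and 1.69 ± 1.25 CPM (SD, n = 5). The mice with 0 counts were among the 8 with fewer than 100 counts of Cyp2b9, and a count of 0 allows up to 3 counts, so that absence was not shown. In the 12 mice with at least 100 Cyp2b9 counts, Cyp2b13 made up from 0.909% to 4.02% (median 2.56%) of the counts of the pair. In Adn-Lpin1-/- HFD mouse 1 this share was 2.54% (95% exact binomial interval 2.21% to 2.89%), and in mouse 5 of that group 3.79% (2.71% to 5.15%), where intervals cover counting error only. The small Cyp2b13 count could hold reads of Cyp2b9 placed on the copy, and that was not tested.

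**Figure D1:**
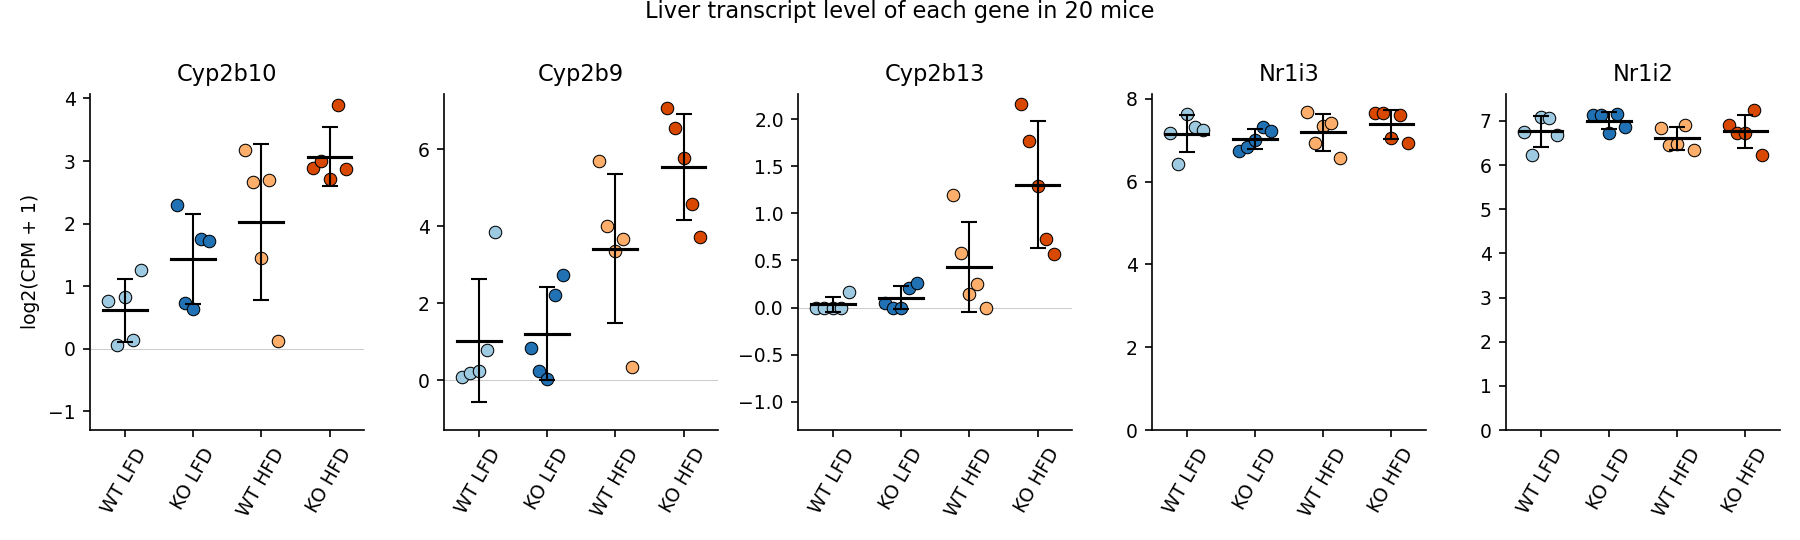
Level of each gene as log2(CPM + 1) on the vertical axis in the 4 groups (KO, Adn-Lpin1-/-). Points are mice in the order 1 to 5, and bars are the mean and SD of 5 mice. Cyp2b9 in WT LFD mouse 5 (13.4 CPM) and in WT HFD mouse 5 (0.274 CPM) lay apart from most mice of their diets, and the 4 groups overlapped for both receptors.

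The fitted diet difference, given without a test since it chose the genes, was larger in Adn-Lpin1-/- than in WT mice for Cyp2b9, with a log2 fold change of 4.94 ± 1.26 (SE) in Adn-Lpin1-/- and 2.57 ± 1.17 in WT livers. For Cyp2b10 it was 1.99 ± 0.71 in Adn-Lpin1-/- and 2.79 ± 0.80 in WT livers. For Cyp2b13 it was 4.39 ± 0.94 and 3.91 ± 1.31, and the WT value rests on 5 counts in the LFD group. The difference between these diet effects was 2.36 ± 1.61 for Cyp2b9, -0.80 ± 1.05 for Cyp2b10 and 0.48 ± 2.44 for Cyp2b13, which shares the values that chose the genes and was not tested. The groups of 5 did not overlap for any of the 3 genes in Adn-Lpin1-/- mice and overlapped for all 3 in WT mice. Over all genes tested, the groups were apart for 4.06% in Adn-Lpin1-/- and for 3.73% in WT mice, and by the adjusted p 1.2% of genes rose and 1.26% fell on the HFD in Adn-Lpin1-/- mice, against 0.429% and 0.674% in WT mice. Nothing is read from these shares for genes chosen by their diet rise. Without WT LFD mouse 5 the WT diet difference of Cyp2b9 became 6.0, and without WT HFD mouse 1 it became 1.63.

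Beside the mice numbered 5, the other genes that responded to diet were looked at. Of 319 genes called between the diets in Adn-Lpin1-/- mice, the Cyp2b genes left out, WT LFD mouse 5 was nearer to the median of the other WT LFD mice than to that of WT HFD mice for 61.1%, and WT HFD mouse 5 was nearer to its own diet for 61.4%. The other 8 WT mice were nearer to their own diet for between 61.4% and 83.7% of the genes. Both mice thus sat with their labelled diet by most of these genes, at the low end of the range.

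Levels of different genes were compared per kilobase of gene model. Cyp2b9 reached 33.7 ± 26.8 CPM per kb (SD, n = 5) in Adn-Lpin1-/- HFD livers, above Cyp2b10 at 3.70 ± 1.60 and Cyp2b13 at 0.903 ± 0.668. In WT LFD livers the means were 1.55 ± 3.14 CPM per kb for Cyp2b9, 0.286 ± 0.264 for Cyp2b10 and 0.0131 ± 0.0294 for Cyp2b13. The Cyp2b9 mean rests on mouse 5 (7.16 CPM per kb, the other 4 at most 0.389), so it gives no order with Cyp2b10 there. Cyp2b9 had more counts than Cyp2b10 in all 5 mice of each HFD group, but in 3 WT and 2 Adn-Lpin1-/- mice on the LFD. The pooled libraries, which repeat the same mice, gave Cyp2b9 at 3.12, 2.17, 18.5 and 74.3 CPM in WT LFD, Adn-Lpin1-/- LFD, WT HFD and Adn-Lpin1-/- HFD. The remaining family members Cyp2b19 and Cyp2b23 had at most 4 and 2 counts in any single mouse and were not tested.

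**Figure D2:**
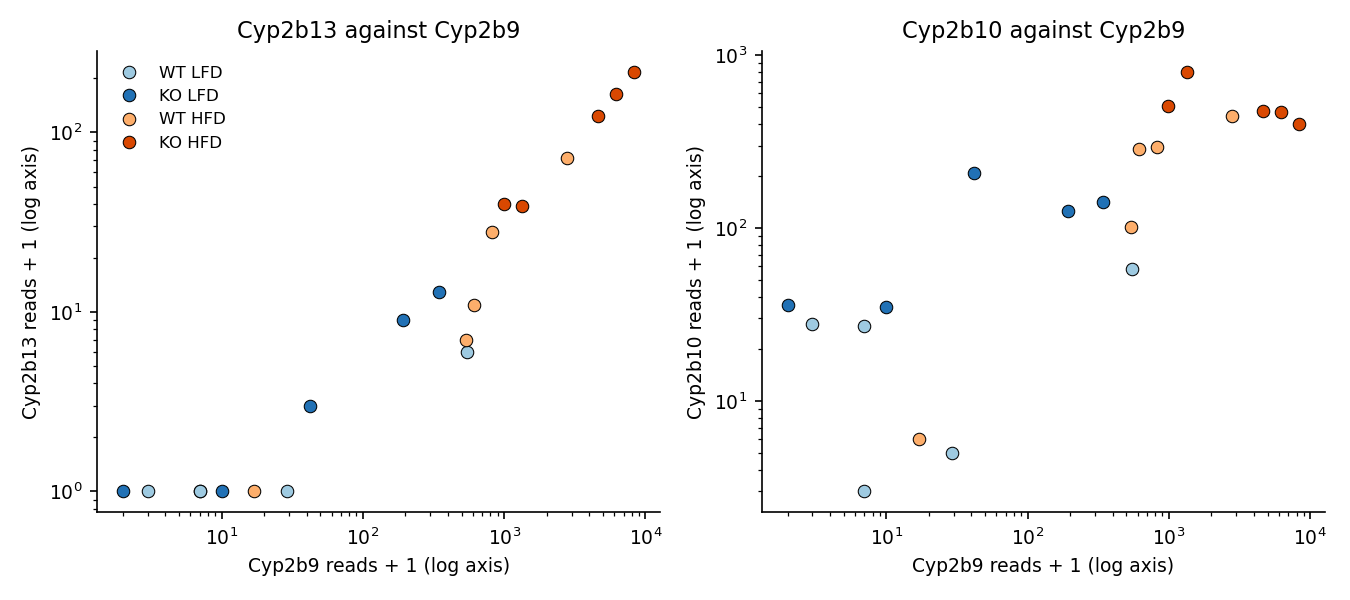
Reads of Cyp2b13 (left) and of Cyp2b10 (right) against reads of Cyp2b9 in 20 mice, each plus 1 and on log axes, coloured by group (KO, Adn-Lpin1-/-). Cyp2b13 climbed with Cyp2b9, whereas Cyp2b10 held 398 to 800 reads in Adn-Lpin1-/- HFD mice while Cyp2b9 ran from 989 to 8342.

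Whether loss of adipocyte lipin 1 changed these genes in the liver was asked on each diet. The study's supplement lists Cyp2b10 on the LFD and Cyp2b9 on the HFD among genes significantly upregulated in Adn-Lpin1-/- livers, from its voom fit. Neither gene passed for that diet under edgeR, DESeq2 or voom here. The study's legends give a larger n per group than the 5 single mice used here, and its volcano plots show unadjusted p. The samples tested were thus not the same. By voom here Cyp2b10 on the LFD was 2.17 (voom adjusted p = 0.315) and Cyp2b9 on the HFD 2.11 (voom adjusted p = 0.0653). On the HFD 3 members had an unadjusted p under 0.05 by voom. None of the 3 Cyp2b genes passed edgeR's quasi-likelihood test for genotype on either diet, with 1 at an unadjusted p under 0.05 on each, and 0 passed by DESeq2 on either diet, 0 by voom on the LFD and 1 by voom on the HFD. Over all genes, the LFD comparison called 6.27% higher and 8.11% lower in Adn-Lpin1-/- livers, and the HFD comparison 9.87% and 8.78%. On the LFD Cyp2b10 had the largest estimate among the members, a log2 fold change of 1.71 ± 0.81 (SE, adjusted p = 0.166), with Adn-Lpin1-/- above WT in 19 of 25 pairs of mice. With 1 mouse left out it ran from 1.29 without Adn-Lpin1-/- LFD mouse 1 to 2.33 without WT LFD mouse 5 (edgeR adjusted p = 0.319 and 0.0915), and it did not pass in any of these fits. Cyp2b9 on the LFD stood at -0.51 ± 1.22 (edgeR adjusted p = 0.824), which turned to 2.91 without WT LFD mouse 5 and to 0.37 under voom with quality weights, so these data give no direction for it. Cyp2b13 on the LFD stood at 1.54 ± 1.65 (edgeR adjusted p = 0.575) from 5 counts in WT and 22 in Adn-Lpin1-/- livers.

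On the HFD all 3 estimates were positive. They use HFD values that also entered the choice of these genes, so their p-values and pair counts carry that limit. Cyp2b9 averaged 17.5 CPM in WT and 63.2 CPM in Adn-Lpin1-/- livers, a log2 fold change of 1.85 ± 1.07 (edgeR adjusted p = 0.237), with Adn-Lpin1-/- mice higher in 22 of 25 pairs. It ran from 1.38 without Adn-Lpin1-/- HFD mouse 1 to 2.78 without WT HFD mouse 1, and did not pass in any of these fits. A two-sided exact permutation test of its log2(CPM + 1) gave p = 0.0635, where 0.00794 is the smallest value that 5 mice against 5 can give. Cyp2b13 differed by 2.02 ± 0.76 (edgeR adjusted p = 0.0685, exact permutation p = 0.0556). Since 3 of the 4 mice that carried it over the limit on low counts were Adn-Lpin1-/- HFD mice, it entered through the group that was higher, and nothing is read from this p. With no limit on low counts the edgeR adjusted p was 0.111, in a fit of the compared groups only it was 0.108, and by DESeq2 it was 0.278, against 0.0346 by voom with quality weights (2.64). With 1 mouse left out, the edgeR adjusted p was lowest without Adn-Lpin1-/- HFD mouse 5 (0.0471) or mouse 4 (0.0488), the lowest mice of their group, and highest without WT HFD mouse 3 (0.141). Cyp2b10 differed by 0.91 ± 0.68 (edgeR adjusted p = 0.368, exact permutation p = 0.119). The summed counts of the 3 genes, which do not depend on how reads were divided among the copies, averaged 22.1 ± 22.9 in WT HFD and 72.7 ± 50.3 CPM in Adn-Lpin1-/- HFD livers (SD, n = 5), a log2 difference of 1.72 ± 0.94 (edgeR adjusted p = 0.21) that ran from 1.32 to 2.53 without the same mice, Adn-Lpin1-/- HFD mouse 1 and WT HFD mouse 1. On the LFD the sums averaged 3.54 ± 6.40 and 4.10 ± 3.33 CPM (0.20 ± 1.03, edgeR adjusted p = 0.926). Groups overlapped in every genotype comparison of the 5 genes, while they were apart for 10.1% of all genes on the LFD and 11.4% for genotype on the HFD.

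**Figure D3:**
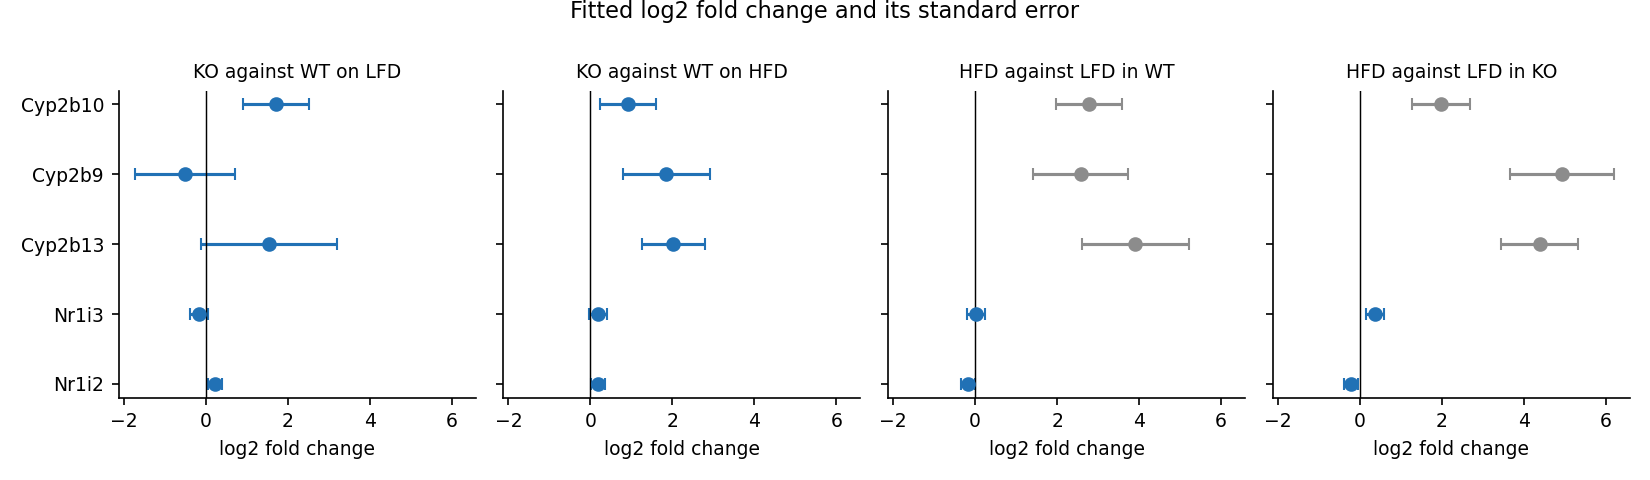
Fitted log2 fold change (horizontal axis) with its standard error for the 5 genes in the 4 contrasts (KO, Adn-Lpin1-/-). Blue points were tested and none had an adjusted p at or below 0.05, and grey points are diet values that chose the genes. The receptors lay between -0.21 and 0.38 in all contrasts.

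Neither receptor passed the test in any contrast. Nr1i3 (ENSMUSG00000005677, chromosome 1) had 144, 85, 198, 159 and 150 CPM in WT LFD mice 1 to 5. The 5 Adn-Lpin1-/- LFD mice had 106, 114, 127, 159 and 148 CPM, the WT HFD mice 205, 122, 162, 169 and 93.4 CPM, and the Adn-Lpin1-/- HFD mice 201, 201, 131, 195 and 122 CPM. All 4 ranges overlapped, and the highest mouse was 2.41 times the lowest, whereas Cyp2b9 spanned 8374 times. The lowest Cyp2b9 value was 1 count, in Adn-Lpin1-/- LFD mouse 3, and that span includes the diet rise that chose Cyp2b9. Group means of Nr1i3 ran from 131 ± 22.2 in Adn-Lpin1-/- LFD through 147 ± 40.7 in WT LFD and 150.1 ± 43.3 in WT HFD to 169.9 ± 39.9 CPM in Adn-Lpin1-/- HFD. The widest of the 4 contrasts was the diet effect in Adn-Lpin1-/- mice, a log2 fold change of 0.38 (95% interval -0.08 to 0.83, edgeR adjusted p = 0.404). In WT mice the diet effect was 0.03 (-0.43 to 0.48, edgeR adjusted p = 0.965). The genotype effect was -0.17 on the LFD (-0.63 to 0.28, edgeR adjusted p = 0.636) and 0.18 on the HFD (-0.28 to 0.63, edgeR adjusted p = 0.596).

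Nr1i2 (ENSMUSG00000022809, chromosome 16) had 107, 74.1, 136, 134 and 101 CPM in WT LFD mice and 139, 140, 105, 142 and 115 CPM in Adn-Lpin1-/- LFD mice. WT HFD mice had 114, 87.2, 88.2, 118 and 79.8 CPM, and Adn-Lpin1-/- HFD mice had 118, 106, 105, 152 and 73.5 CPM. These ranges overlapped too. Means were lowest in WT HFD (97.5 ± 17.4) and highest in Adn-Lpin1-/- LFD (128 ± 16.9 CPM, SD, n = 5). Genotype gave 0.22 on the LFD (95% interval -0.15 to 0.59, edgeR adjusted p = 0.436) and 0.19 on the HFD (-0.18 to 0.56, edgeR adjusted p = 0.483). Diet gave -0.18 in WT (-0.55 to 0.19, edgeR adjusted p = 0.67) and -0.21 in Adn-Lpin1-/- mice (-0.58 to 0.16, edgeR adjusted p = 0.603). The genotype effect differed between the diets by 0.35 ± 0.30 for Nr1i3 (edgeR adjusted p = 0.856) and by -0.03 ± 0.25 for Nr1i2 (edgeR adjusted p = 0.994). In edgeR 0 of 13052 genes were called for that difference, with 938 at an unadjusted p under 0.05, against 0 by voom and 28 by DESeq2.

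The level of Nr1i3 has a limit of its own. Of the 4414 exon bases of its gene model 2268 (51.4%) were also exon bases of Tomm40l, a gene on the opposite strand that encodes a mitochondrial import protein, and reads over shared bases were ambiguous unless strand was used, which is not given in the sources used here. Per kilobase of gene model Nr1i3 averaged 33.9 and Nr1i2 43.8 CPM over the 20 mice. All Nr1i3 counts divided by its 2146 unshared bases gave 69.7 CPM per kb. That value is an upper limit, reached only if no read on shared bases was counted. The order of the receptors therefore depends on the length used. Tomm40l had between 4.57 and 11.2 CPM, its deviations from the group means correlated with those of Nr1i3 at r = 0.83 over 20 mice, and it too was not called in any contrast.

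Within groups, the genes were compared as deviations of log2(CPM + 1) from the group mean over the 20 mice, with permutation of mice within groups and adjustment over 10 pairs. Cyp2b9 and Cyp2b13, which share sequence, gave r = 0.75 and rho = 0.82 (permutation adjusted p = 0.0001 for both, the smallest that the permutations can give). Without the mice farthest out in Cyp2b9, WT LFD 5 and WT HFD 5, r was 0.82. Cyp2b13 was at most 0.123 CPM in WT LFD and 0.197 CPM in Adn-Lpin1-/- LFD mice, so LFD mice add little to this r. Reads of Cyp2b9 placed on the copy could enter it too, which was not tested. The receptors moved together, with r = 0.72 (permutation adjusted p = 0.00845) and rho = 0.70 (permutation adjusted p = 0.0112), and r = 0.59 without WT LFD mouse 2 and WT HFD mouse 5. Cyp2b10 and Cyp2b9 gave r = 0.63 (permutation adjusted p = 0.0407) and rho = 0.55 (permutation adjusted p = 0.0602), but r fell to 0.35 without WT HFD mice 5 and 1, so that this relation rests on those mice. Nr1i3 with Cyp2b9 gave r = 0.58 and rho = 0.57 (permutation adjusted p = 0.0504 and 0.0602), and Nr1i3 with Cyp2b10 gave r = 0.52 and rho = 0.48 (permutation adjusted p = 0.0588 and 0.0813). Nr1i2 with Cyp2b10 gave r = 0.49 and rho = 0.48 (permutation adjusted p = 0.0504 and 0.0813). The other 4 pairs had r between 0.23 and 0.47 and did not pass. All libraries of a pair share depth and handling, which could enter both values and was not tested.

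**Figure D4:**
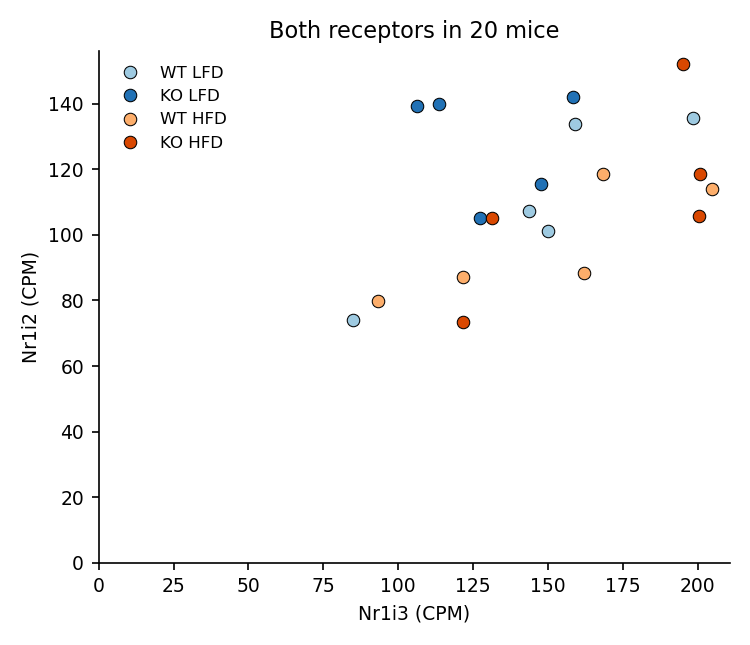
Nr1i2 against Nr1i3 in CPM on linear axes from 0, each point a mouse, coloured by group (KO, Adn-Lpin1-/-). The 4 groups overlap, and mice low in Nr1i3 such as WT LFD mouse 2 (85 CPM) and WT HFD mouse 5 (93.4 CPM) were low in Nr1i2 as well (74.1 and 79.8 CPM).

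As a description, the 5 genes outside the members most like each by Pearson's r of log2(CPM + 1) over the 20 mice were listed, from the 13052 tested. For Cyp2b9 they were Gm20684 (r = 0.89), Hadh (0.88), an enzyme of mitochondrial fatty acid oxidation, Pafah2 (0.88), Ddah1 (0.88) and Tmem28 (0.87), and within groups their r was between 0.72 and 0.82. For Cyp2b13 they were Slc22a29 (0.86), Slc22a27 (0.84), both of the organic anion transporter family, Zcwpw1 (0.83), Slc37a2 (0.81) and Clpb (0.81). Their r within groups was lower, between 0.54 and 0.77. For Cyp2b10 they were Tpm2 (0.88), Dop1b (0.86), Suox (0.85), which encodes sulfite oxidase, Ghdc (0.84) and Mgst3 (0.84), a microsomal glutathione transferase. Here r within groups was between 0.59 and 0.78. Over the 20 mice, r for the Cyp2b genes includes the diet rise that chose them. For Nr1i3 they included Acot3 (0.76), Ces1d (0.75), Cipc (0.74) and Aifm2 (0.74). For Nr1i2 they were Ptp4a1 (0.88), Per1 (0.87), a core clock gene, St3gal5 (0.86), Wbp1l (0.84) and Lpin2 (0.84), which encodes lipin 2. No gene was named for more than 1 member, and all points share libraries and groups.

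Of the partners and regulators of the receptors, all 23 were tested. In number, 4 were lower in Adn-Lpin1-/- livers on each diet and 0 were higher, beside 8.11% of all genes lower on the LFD and 8.78% on the HFD. On both diets the coactivator Ncoa2 (-0.42 for LFD, -0.37 for HFD), the glucocorticoid receptor Nr3c1 (-0.46 and -0.37) and the hepatocyte factor Cebpa (-0.31 on each) were lower, with edgeR adjusted p at most 0.011. Foxa3, a liver pioneer factor, was lower on the LFD (-0.69, edgeR adjusted p = 0.0209) and Egfr, the receptor through which EGF holds CAR inactive, on the HFD (-1.10, edgeR adjusted p = 0.00915). The Foxa3 call was lost without 2 of the 20 mice, and the others held. Livers of WT HFD mice averaged 815 ± 241 CPM of Egfr and those of Adn-Lpin1-/- HFD mice 381 ± 145 (SD, n = 5). For diet 0 partners were called in either genotype, with 4 in WT and 6 in Adn-Lpin1-/- mice at an unadjusted p under 0.05, while DESeq2 called 1 and 2 and voom 2 and 1. Rxra, the partner of both receptors, was not called in any contrast (-0.15 for genotype on the LFD and 0.20 for diet in Adn-Lpin1-/- mice). The medians of the list, -0.09 and -0.06 for genotype, lay beside 0.01 and 0.00 over all genes.

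Targets of CAR and PXR outside the Cyp2b family were called in both directions. Of 38 tested of 42, 4 were higher and 7 lower in Adn-Lpin1-/- livers on the LFD, and 1 higher and 3 lower on the HFD, with list medians of -0.01 on both diets. Over all genes 6.27% were higher and 8.11% lower on the LFD, and 9.87% and 8.78% on the HFD, where neither count of targets exceeded the share of all genes. The higher genes on the LFD were Gsta1 (2.74), Abcc3 (1.13), an efflux transporter, Ephx1 (1.01), the microsomal epoxide hydrolase, and Aldh1a7 (0.55). Ephx1 was higher in Adn-Lpin1-/- livers on both diets, from 156 ± 30.7 to 315 ± 117 CPM on the LFD (edgeR adjusted p = 0.00163) and from 262 ± 30.2 to 415 ± 64.4 on the HFD (0.66, edgeR adjusted p = 0.0202). The lower genes included Cyp2c54 (-1.38 on the LFD and -0.90 on the HFD), Cyp1a2 (-1.28 on the LFD), Cyp2c37 (-1.05 on the LFD), the coumarin hydroxylase Cyp2a5 (-0.95 and -0.60) and the sulfate donor synthase Papss2 (-0.35 and -0.40). Cyp3a11, the textbook target of PXR, had 559 ± 288, 868 ± 279, 337 ± 175 and 676 ± 266 CPM in WT LFD, Adn-Lpin1-/- LFD, WT HFD and Adn-Lpin1-/- HFD livers, and was not called (1.00 for genotype on the HFD, edgeR adjusted p = 0.0739).

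On the diet contrast, which chose the Cyp2b genes but not these targets, 0 of 38 were called in WT mice by edgeR, with 13 at an unadjusted p under 0.05 and 0.07 as the list median, whereas DESeq2 called 4 and voom 6. Over all genes, 1.2% rose and 1.26% fell on the HFD in Adn-Lpin1-/- mice, where 3 of the 38 targets rose and none fell. These were Cyp2c37 (1.35, edgeR adjusted p = 0.00243), Cyp2c50 (0.97, edgeR adjusted p = 0.00337) and Cyp2a5 (0.75, edgeR adjusted p = 0.0291), whose call was lost without 6 of the 20 mice (edgeR adjusted p up to 0.0797). Cyp2c37 averaged 71.8 ± 28.1 in Adn-Lpin1-/- LFD and 183 ± 41.9 CPM in Adn-Lpin1-/- HFD livers, so that the HFD mean lay near the 149 ± 32.8 of WT LFD livers. Por, the electron donor of these enzymes, was not called for diet (0.13 in WT and -0.06 in Adn-Lpin1-/- mice).

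Of the 8 listed neighbours of the Cyp2b genes in the same gene cluster 6 were tested. Cyp2g1 was lower in Adn-Lpin1-/- livers, from 1.81 ± 0.460 to 0.489 ± 0.180 CPM on the LFD and from 1.82 ± 0.275 to 0.382 ± 0.0657 on the HFD (-1.89 and -2.25). Its Adn-Lpin1-/- means lay under the limit of 1 CPM. It therefore entered through WT mice, the higher group, and nothing is read from its call. Cyp2a22 was higher on the HFD (0.91, edgeR adjusted p = 0.00356), while Cyp2a5 was lower on both diets as given above. Over all genes 6.27% were higher and 8.11% lower on the LFD, and 9.87% and 8.78% on the HFD. On the HFD in Adn-Lpin1-/- mice Cyp2a4 (0.72, edgeR adjusted p = 0.0271), Cyp2a5 and Cyp2a22 (0.73, edgeR adjusted p = 0.0469) rose. In that contrast 1.2% of all genes rose and 1.26% fell. The Cyp2a22 diet call was lost without 15 of the 20 mice (edgeR adjusted p up to 0.124) and that of Cyp2a4 without 5. Sequence shared among the neighbours was not measured.

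Cyp2b9 and Cyp2b13 belong to a list of 24 female-biased liver genes, of which 16 were tested. Of the other 14, edgeR called 0 for genotype on the LFD or the HFD or for diet in WT mice, with 4, 4 and 3 at an unadjusted p under 0.05. DESeq2 called 1, 4 and 1 there and voom 2, 0 and 1. In Adn-Lpin1-/- mice Cyp2a4 alone rose on the HFD in edgeR. Their median diet effect was 0.04 in each genotype. Of 24 male-biased genes all were tested, and 7 were lower on the LFD and 6 lower and 1 higher on the HFD in Adn-Lpin1-/- livers, among them the steroid dehydrogenase Hsd3b5 (-1.32 and -1.04) and Ugt2b1 (-0.73 and -0.49), beside 8.11% and 8.78% of all genes lower. On the HFD the genotype call of Hsd3b5 was lost without 7 of the 20 mice and that of Ugt2b1 without 5. On the HFD 3 fell in WT mice, Cyp4a12b (-1.48), Mup21 (-0.73) and Ugt2b1 (-0.67), and 2 fell in Adn-Lpin1-/- mice, Cyp4a12b (-1.72) and Cyp4a12a (-1.11). Over all genes, 0.674% fell on the HFD in WT and 1.26% in Adn-Lpin1-/- mice. Without 1 mouse, the WT diet call was lost in 14 of 20 fits for Mup21 and in 9 of 20 for Ugt2b1 (edgeR adjusted p up to 0.123 and 0.105), while that of Cyp4a12b held in all 20. Cyp4a12b, a fatty acid hydroxylase, went from 207 ± 22.5 to 74.3 ± 22.6 CPM in WT and from 228 ± 38.4 to 69.4 ± 10.5 in Adn-Lpin1-/- mice. In the growth hormone axis of 10 genes, the receptor Ghr was lower in Adn-Lpin1-/- livers on both diets (-0.43 and -0.23), Igfals on the LFD (-0.68) and Igf1 on the HFD (-0.53). Stat5b, the factor that carries the growth hormone signal, rose on the HFD in Adn-Lpin1-/- mice (0.31, edgeR adjusted p = 0.0197), and 0 genes of the axis were called for diet in WT mice by edgeR, DESeq2 or voom, with 2 at an unadjusted p under 0.05 in edgeR. Xist was at most 0.596 CPM and the Y-linked Ddx3y at least 28.2 CPM in all 20 libraries, as male livers would have. Of the 4 sex-chromosome genes tested, 2 were called lower in Adn-Lpin1-/- livers on the LFD (Uty and Ddx3y). On the HFD 3 were (Ddx3y, Uty and Kdm5d), with 0 higher on either diet, and the cause was not tested.

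**Figure D5:**
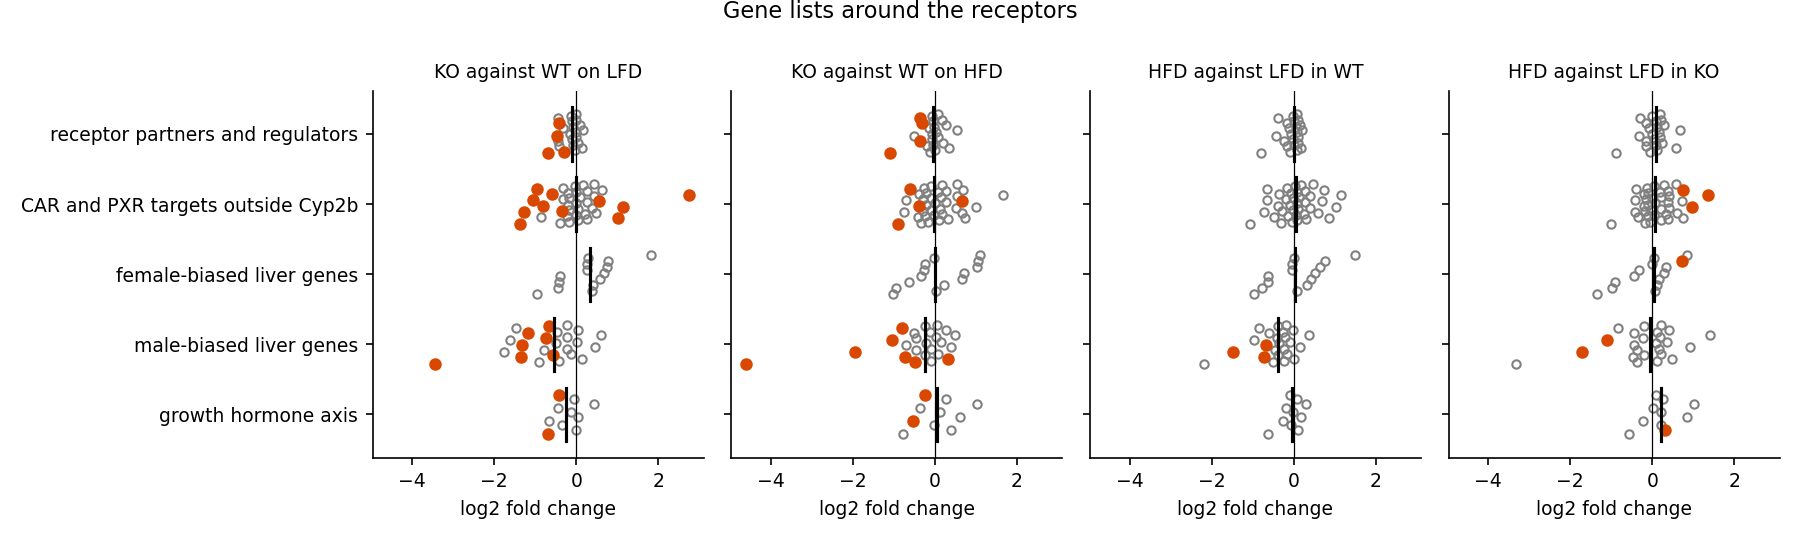
Fitted log2 fold changes (horizontal axis) of the tested genes of 5 lists in the 4 contrasts (KO, Adn-Lpin1-/-), with the members left out. Filled points had an edgeR adjusted p at or below 0.05, open points did not, and vertical bars are list medians. For diet 0 of 23 partners and 0 of 38 targets were filled in WT mice, and 0 and 3 in Adn-Lpin1-/- mice.

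Liver is a mixture of cells, and fewer cells of a type and less RNA per cell cannot be told apart in these libraries. Alb was between 55514 and 87678 CPM in all mice. Over all genes, 6.27% were higher and 8.11% lower in Adn-Lpin1-/- livers on the LFD, and 9.87% and 8.78% on the HFD. Of 8 hepatocyte markers 1 was lower in Adn-Lpin1-/- livers on the LFD and 5 on the HFD, with sums from 106716 to 131091 CPM in WT HFD and from 87902 to 118781 in Adn-Lpin1-/- HFD mice. Of 8 stellate cell markers, 5 were higher on the LFD, and 4 were on the HFD (sums of 151 to 226 CPM in WT HFD and 183 to 459 in Adn-Lpin1-/- HFD mice), and 5 of 7 macrophage and 4 of 6 sinusoidal endothelial markers were higher on the HFD. Among these HFD calls, Oit3 was lost without 15 of the 20 mice. Pecam1, Cd5l and Acta2 were lost without 7 each, and Lyve1 and Vsig4 without 6 each. Those of Cd68 and Stab2 held in all 20 fits. Voom called 2 stellate cell markers higher on the HFD. For diet, the contrast that chose the Cyp2b genes, edgeR called 0 genes of these 4 lists in either genotype, with 2 in WT and 6 in Adn-Lpin1-/- mice at an unadjusted p under 0.05. DESeq2 called 1 (WT) and voom 2 (both WT). Of the adipocyte markers Plin1 and Lep were at most 0.112 and 0.0728 CPM and Adipoq at most 4.32, while Cfd, which was higher in Adn-Lpin1-/- livers (3.76 on the LFD and 3.81 on the HFD), reached 183 CPM. On the LFD the Cfd value ran from 2.62 to 5.02 without 1 mouse, its call was lost without 6 of the 20 mice, and voom did not call it. The part of these markers in the values of the Cyp2b genes was not tested. Lpin1 itself was not deleted in liver by design, and its 120 to 1195 CPM across the 20 mice check no label.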

How the data were processed

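Liver RNA was sequenced from poly-A selected libraries, 20 of single mice and 4 of pooled RNA. The authors aligned reads to GRCm38 with STAR 2.5.1a, counted uniquely aligned, unambiguous reads on Ensembl release 76 genes with featureCounts 1.4.6-p5, and deposited a raw count, CPM and RPKM per gene. The read length and use of strand are not given in the sources used here. Only the deposited counts and gene model lengths were used. CPM was recomputed on library sizes scaled by TMM. The study tested with voom and quality weights, which was an alternative here.

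The 355 rRNA genes were left out, and a gene entered where at least 4 of 20 libraries had over 1 CPM. R 4.3.3 ran edgeR 4.0.16, by its quasi-likelihood test on 4 group means with Benjamini-Hochberg adjustment at 0.05. Intervals of fold changes used 16 residual degrees of freedom. Alternatives were DESeq2 1.42.0 (size factors, Wald test), voom (limma 3.58.1), no limit on low counts, a fit of the compared groups only, a replicate block, and each mouse left out. Correlations used 100000 permutations within groups (numpy 2.4.6, scipy 1.17.1). The tests were run first on simulated data. No pair of mice was a repeat library (chi-square per degree of freedom at least 31.9 within groups). WT mice were littermates of Adn-Lpin1-/- mice, which mice shared a litter is not given in the sources used here, and totals per mouse limit the precision of low counts as given.

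The members and gene lists were chosen with earlier results of these data known. Genes named are the members, up to 6 called genes of largest change per list and contrast, the 5 genes most like each member (1 of them is not reported here), and, chosen after their values were seen, Rxra, Por, Cyp3a11, Tomm40l, Cyp2b19, Cyp2b23 and the markers named at the end. Pseudogene Gm45225, which shares windows with the Cyp2b transcripts, was not among the genes counted. Shared windows were counted in GENCODE M21 transcripts of GRCm38 on both strands.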

Additional observations from a re-analysis of the deposited data

Results flagged for a closer look

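In 20 groups of 5 mice checked (5 genes in 4 groups), 4 held a mouse whose gap to its nearest neighbour exceeded 71% of the group's range. That limit flags about 1 group in 20 only where values are normally distributed. The skewed CPM of the Cyp2b genes are not, so the 4 are not set against that rate. In WT LFD mouse 5, Cyp2b9 was 13.4 CPM (gap of 94.9%) and Cyp2b13 0.123 CPM (gap of 100%, on 5 counts), and the genes share sequence. WT HFD mouse 1 had 51.1 CPM of Cyp2b9 (gap of 71.1%). Cyp2b10 was 13.8 CPM in Adn-Lpin1-/- HFD mouse 4 (gap of 83%), a mouse in which Cyp2b9, at 23 CPM, was the second lowest of its group. For neither receptor did the difference of the genotype effect between diets pass its test.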

How the results depend on the processing

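Both receptors stayed uncalled in every contrast under all alternatives run, and 0 members were called for genotype except Cyp2b13 on the HFD. Cyp2b13 on the HFD passed under voom (log2 2.64) and ranged from 1.68 to 2.26 without 1 mouse, but nothing is read from this, since it entered through Adn-Lpin1-/- HFD mice. Without any one of the 4 mice above 1 CPM it failed the limit on low counts and gave no value. Cyp2b9 on the LFD reversed under voom (0.37) and ranged from -1.37 to 2.91 without 1 mouse, and the summed Cyp2b counts on the LFD ranged from -0.22 to 2.63, the highest values without WT LFD mouse 5. The WT diet difference of Cyp2b9 was 5.09 under voom and ranged from 1.63 to 6.0 without 1 mouse, and that of Cyp2b13 from 3.58 to 7.55, where the highest value has only 0 counts in WT LFD and depends on the prior count. The difference of the genotype effect between diets ranged from -1.07 to 3.30 for Cyp2b9 and from -0.18 to 0.087 for Nr1i2, and the WT diet effect of Nr1i3 from -0.11 to 0.16. The cause of these changes was not tested.

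Over all genes, the WT diet effect called 144 genes, against 400 by DESeq2, 670 by voom, 70 in a fit of the compared groups only and 55 (without WT HFD mouse 3) to 289 (without WT LFD mouse 5) when 1 mouse was left out. Leaving out WT LFD mice 1, 2 or 4 (70, 64 and 59 genes) or WT HFD mice 1, 2 or 4 (95, 65 and 91 genes) also moved it by over 1.5 times. The diet effect in Adn-Lpin1-/- mice called 321, against 577 by DESeq2, 155 in a fit of the compared groups only and 123 (without Adn-Lpin1-/- LFD mouse 3) to 383 when 1 mouse was left out, with 163 and 159 without LFD mice 2 and 4 and 176, 210 and 205 without HFD mice 1, 2 and 5 of that genotype. Genotype called 1877 genes on the LFD (1208, without WT LFD mouse 3, to 1954) and 2434 for HFD livers (1477, without Adn-Lpin1-/- HFD mouse 2, to 2750). The difference between diets called 0 in edgeR and 28 in DESeq2.

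With the replicate number as a block, the WT diet effect called 90 genes. The replicate block changed no call of a member. Same-numbered mice were different animals, and the correlations of their deviations ran from -0.45 to 0.31 over 20 pairs. The same-numbered mouse gave the highest correlation in 6 of the 20. The numbers were therefore not used as pairs in the main fit, and whether some mark a shared litter or batch was not tested.

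With DESeq2 size factors the correlations of Cyp2b10 with Nr1i2 (0.49) and Cyp2b9 with Nr1i3 (0.58) passed. With 0.1 CPM added in place of 1, Cyp2b10 passed with Cyp2b13 (0.59), Nr1i3 (0.58) and Nr1i2 (0.46), and Nr1i3 with Cyp2b9 (0.54) and Cyp2b13 (0.53). Without 1 mouse, r ranged from 0.41 to 0.71 for Cyp2b10 with Cyp2b9 (not passing without 8 of the 20 mice), from 0.32 to 0.63 for Cyp2b10 with Nr1i3, from 0.42 to 0.56 for Cyp2b10 with Nr1i2, from 0.44 to 0.68 for Cyp2b9 with Nr1i3, from 0.35 to 0.59 for Cyp2b13 with Nr1i3 and from -0.023 to 0.49 for Cyp2b13 with Nr1i2. Of 2130 values of the 82 other named results under alternatives, 1915 kept their side of the threshold and 215 lost it, and 0 changed direction. Counts under 10, as for Cyp2b13 on the LFD, limit what depth can show.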
